A study of Mus musculus with 10 samples.

Results

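The 30 genes described here are standard transcript markers of dividing cells. Of these, 23 act in mitosis or its control and 7 act in DNA replication or nucleotide supply. They are a list of known genes matched by symbol, drawn up with earlier results of these data known, and all 30 were among the 19204 genes that had a value in at least 1 of 10 libraries of mouse lung mRNA. The libraries were titled HE (3 libraries), Hy (4) and C (3). The study set out to compare lungs of mice with hypoxia-induced pulmonary hypertension under aerobic exercise, lungs of mice with the disease alone, and wild-type lungs. HE, Hy and C stand for these conditions only if the prefixes are read that way, since the labels do not spell them out. Every library is labelled as lung of the WT genotype and carries the same treatment text. Age, strain, length of exposure and whether animals were pooled are not given in the labels. Nothing there ties the libraries to different animals either. The p-values therefore measure the spread between the libraries alone, which may be technical.

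A cell that enters the cell cycle switches on the E2F factors, which drive the genes for DNA replication: the MCM helicase, the sliding clamp PCNA and the enzymes that make deoxynucleotides. Genes of mitosis follow later, when B-MYB and FOXM1 bind the MuvB complex at cell cycle homology region (CHR) elements and NF-Y binds CCAAT boxes. In resting adult lung few cells divide, so these transcripts are scarce. In hypoxic pulmonary hypertension the growth of smooth muscle and endothelial cells in the walls of small arteries is a known feature, and proliferation markers are a usual way to follow it. In a bulk library fewer dividing cells and less of the transcript per cell cannot be told apart.

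Promoter windows of 300 bases, from 250 before to 50 after a RefSeq start on GRCm38.p6, were given for 25 of the 30 genes. No window was used for Ccna2, Aurkb, Kif20a, Tpx2 or Foxm1. The windows of 6 genes that the results turn on are printed below, 5′ to 3′ on the strand of the gene. Capitals mark the letters searched on both strands: CHR letters (TTTGAA or TTCGAA), the CCAAT letters, and E2F letters (TTCCCGC or TTCGCGC, and the variants TTGCCGC or TTGGCGC). On the opposite strand CHR letters read TTCAAA or TTCGAA and CCAAT reads ATTGG. Overlapping matches were each counted. Mki67, Ccnb2, Ube2c and Cdc20 are division genes with different roles, and Tyms and Pcna are the replication genes that passed a test.
Mki67 (chr7:135716330-135716629, minus strand): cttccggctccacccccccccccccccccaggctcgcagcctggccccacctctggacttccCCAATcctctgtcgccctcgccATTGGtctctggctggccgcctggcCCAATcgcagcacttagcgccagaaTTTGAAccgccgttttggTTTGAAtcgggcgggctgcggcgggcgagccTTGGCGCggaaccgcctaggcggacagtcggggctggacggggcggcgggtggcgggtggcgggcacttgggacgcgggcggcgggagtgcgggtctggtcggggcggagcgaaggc
Ccnb2 (chr9:70421505-70421804, minus strand): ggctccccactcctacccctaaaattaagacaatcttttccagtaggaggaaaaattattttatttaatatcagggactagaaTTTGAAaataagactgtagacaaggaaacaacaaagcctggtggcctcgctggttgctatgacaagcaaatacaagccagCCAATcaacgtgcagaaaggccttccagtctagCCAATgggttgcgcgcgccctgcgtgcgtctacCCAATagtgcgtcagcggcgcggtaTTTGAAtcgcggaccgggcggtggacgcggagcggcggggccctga
Ube2c (chr2:164769679-164769978, plus strand): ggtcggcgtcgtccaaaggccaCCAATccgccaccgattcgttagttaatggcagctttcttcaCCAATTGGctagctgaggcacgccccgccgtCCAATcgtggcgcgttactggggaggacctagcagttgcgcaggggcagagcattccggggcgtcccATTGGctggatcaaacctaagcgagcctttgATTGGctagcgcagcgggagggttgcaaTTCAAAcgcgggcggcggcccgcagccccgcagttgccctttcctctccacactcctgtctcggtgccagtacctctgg
Cdc20 (chr4:118437294-118437593, minus strand): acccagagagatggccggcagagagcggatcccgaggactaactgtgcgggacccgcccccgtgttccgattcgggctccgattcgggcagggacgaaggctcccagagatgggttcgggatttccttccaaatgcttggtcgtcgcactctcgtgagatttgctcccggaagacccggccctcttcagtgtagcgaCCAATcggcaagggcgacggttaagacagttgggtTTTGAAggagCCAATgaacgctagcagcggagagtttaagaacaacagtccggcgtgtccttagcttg
Tyms (chr5:30073576-30073875, minus strand): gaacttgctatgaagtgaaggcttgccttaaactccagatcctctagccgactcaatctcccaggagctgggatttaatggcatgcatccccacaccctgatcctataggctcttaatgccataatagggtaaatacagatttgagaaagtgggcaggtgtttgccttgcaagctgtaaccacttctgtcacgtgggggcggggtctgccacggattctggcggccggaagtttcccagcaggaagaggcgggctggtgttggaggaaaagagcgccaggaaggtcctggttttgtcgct
Pcna (chr2:132253131-132253430, minus strand): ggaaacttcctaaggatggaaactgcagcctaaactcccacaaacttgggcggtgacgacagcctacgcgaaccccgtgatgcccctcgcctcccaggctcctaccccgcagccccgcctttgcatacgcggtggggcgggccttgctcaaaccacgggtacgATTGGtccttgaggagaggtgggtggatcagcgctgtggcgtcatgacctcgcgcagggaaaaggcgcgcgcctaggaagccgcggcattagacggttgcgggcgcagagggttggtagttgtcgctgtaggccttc

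CHR letters were in the windows of 14 of 18 division genes and of 1 of 7 replication genes, Mcm2, against 19.2% of all 32851 windows. CCAAT letters were in 16 of 18 division and 6 of 7 replication windows, against 37.4% of all windows. All 14 division windows with CHR letters also held CCAAT, a pair found in 7.52% of all windows. E2F letters were in 4 of 18 division and 4 of 7 replication windows, against 9.57% of all windows. The Mki67 window held 2 CHR, 3 CCAAT and 1 E2F match, and the Ccnb2 window held 2 CHR and 3 CCAAT matches. The Ube2c window held 1 CHR and 6 CCAAT matches, and the Cdc20 window held 1 CHR and 2 CCAAT matches. The Pcna window held 1 CCAAT match and the Tyms window held none of the letters. For a gene with several windows, only that with the lowest chromosome coordinate was used, which on the minus strand is the start furthest downstream. The shares of all windows count every window, so they are not shares of genes. A match describes the letters of the window and not a bound site.

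**Figure D1:**
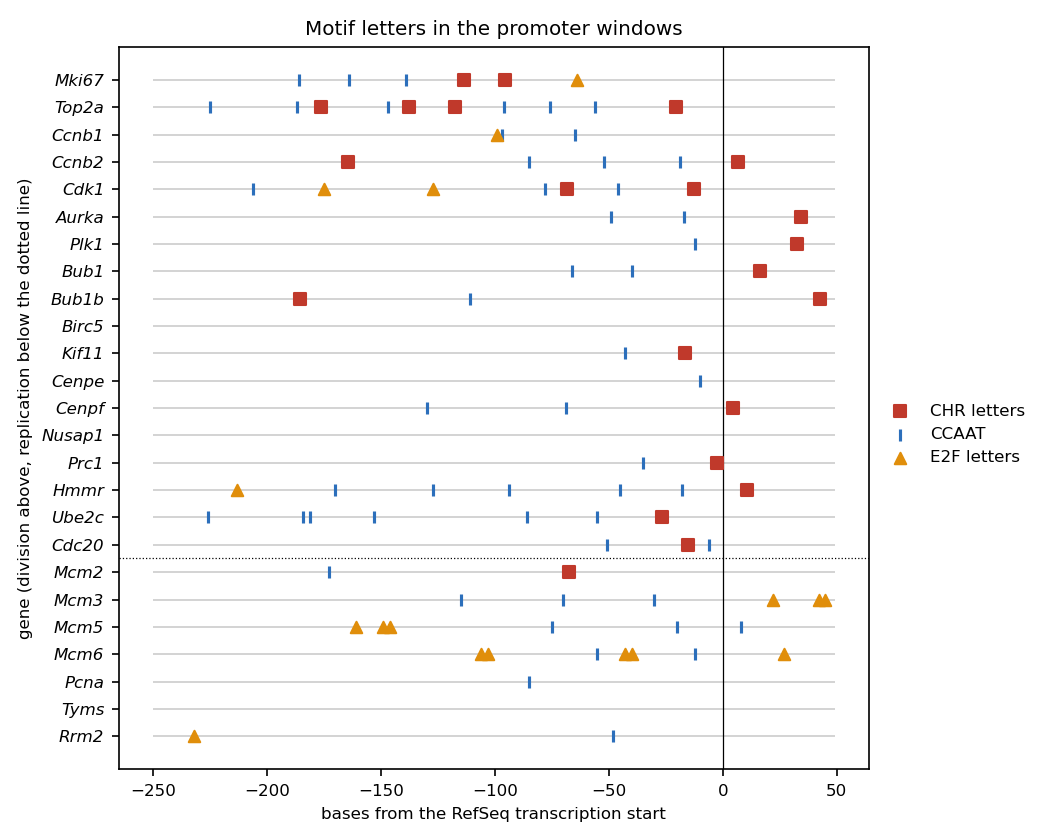
Positions of CHR, CCAAT and E2F letters in the promoter windows of 25 genes, in bases from the RefSeq start of the window used (x axis), with 18 division genes above the dotted line and 7 replication genes below it. CHR letters (squares) were found in 14 of the 18 division windows and in 1 of the 7 replication windows.

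The libraries held between 16560649 (C1) and 17804039 (HE3) estimated counts. Values in the text are counts scaled to library size (CPM) with TMM factors, which correct for a few very abundant transcripts. All 30 genes had values in every library and passed the filter on low counts, so all 30 were tested among 14766 genes. C was tabulated apart from Hy and HE, with values for 18713 genes against 17956 genes, of which 17465 were shared. A difference of Hy or HE from C therefore cannot be told apart from whatever made these gene sets differ. Only HE and Hy share the same set of valued genes. Lung marker genes were abundant in every library, with Sftpc, the surfactant protein C gene of alveolar type II cells, between 6881 and 17430 CPM. Reads of overlapping genes may be split or shared, since the labels do not state that strand was kept. This touches Ccna2, Aurka, Kif20a, Nusap1, Cdc20, Foxm1 and Prc1, which overlap another gene with a value.

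Per kilobase of exon, Pcna was the most abundant of the 30 genes, at 31.8 ± 3.91 CPM per kb in HE, 30.4 ± 3.75 in Hy and 39.7 ± 2.00 in C (SD, n = 3, 4 and 3 libraries). Mcm3, Mcm2 and Mcm5, subunits of the helicase that unwinds DNA at the fork, came next, with medians over the 10 libraries of 5.57, 4.68 and 3.91 CPM per kb. Their ranges over libraries overlapped, from 4.48 to 7.70 for Mcm3 and from 3.52 to 7.42 for Mcm2. By these medians the mitotic genes lay below Pcna, Mcm3, Mcm2 and Mcm5 but were mixed with the other replication genes. Cdc20 was their highest at 2.88 CPM per kb, above Mcm6 at 2.31, Tyms at 1.80 and Rrm2 at 1.64. Foxm1 at 1.79 and Ube2c at 1.69 also lay above Rrm2. Hmmr, Cenpe and Cenpf were lowest, with medians of 0.320, 0.195 and 0.179 CPM per kb. The medians pool the groups, and Tyms had a median of 1.80 but 6.22 ± 0.266 CPM per kb in C (SD, n = 3). Mki67, whose protein coats mitotic chromosomes and is the common marker of cycling cells, ranked 15 of 30 with a median of 1.12 CPM per kb. The per-kilobase scale uses the union of exons in GENCODE M21.

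Few of the 30 genes passed a test in any comparison. In HE against Hy, 0 of 30 genes were called at an adjusted p below 0.05, in a comparison that called 0% of all genes, and 0 of 30 had an unadjusted p below 0.05, against 4.97% of all genes. The quasi-likelihood test of edgeR called 0 genes there, limma-voom 0 and DESeq2 48, of which 0 were in the set. In HE against C, 1 gene was lower (Tyms) and 0 were higher, in a comparison that called 20.4% of all genes, 11.7% higher and 8.66% lower. Another 2 had an unadjusted p below 0.05, which makes 3 of 30 against 36.0% of all genes. In Hy against C, 2 genes were lower (Tyms and Pcna) and 0 were higher, where 26.1% of all genes were called, 15.1% higher and 11.0% lower, and 5 of 30 had an unadjusted p below 0.05, against 40.3% of all genes. The median log2 fold change of the 30 genes was 0.05 in HE against Hy, -0.04 in HE against C and -0.09 in Hy against C, beside -0.01, 0.02 and 0.03 over all genes tested. In HE against Hy, 16 of 30 had a positive fold change, beside 47.9% of all genes, and 14 a negative one, beside 52.1%. In HE against C, 10 of 30 were positive, beside 51.4%, and 20 negative, beside 48.6%. In Hy against C, 13 of 30 were positive, beside 52.1%, and 17 negative, beside 47.9%. The comparisons share libraries and are not independent.

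The number of genes called changed when single libraries were left out, which also makes a group smaller. In HE against C, 3013 genes were called, and leaving out HE1, HE2 or HE3 left 1482, 1019 and 1889. Leaving out Hy3 raised the count to 4712, and leaving out C1, C2 or C3 lowered it to 1305, 1175 and 1014. In Hy against C, 3850 genes were called. Leaving out Hy3 raised that count to 5973 and leaving out Hy4 lowered it to 2458, and with C1, C2 or C3 left out it was 1972, 1681 and 1690. HE against Hy called 6 genes without Hy3 and 1 gene without HE1, of which 0 were in the set.

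**Figure D2:**
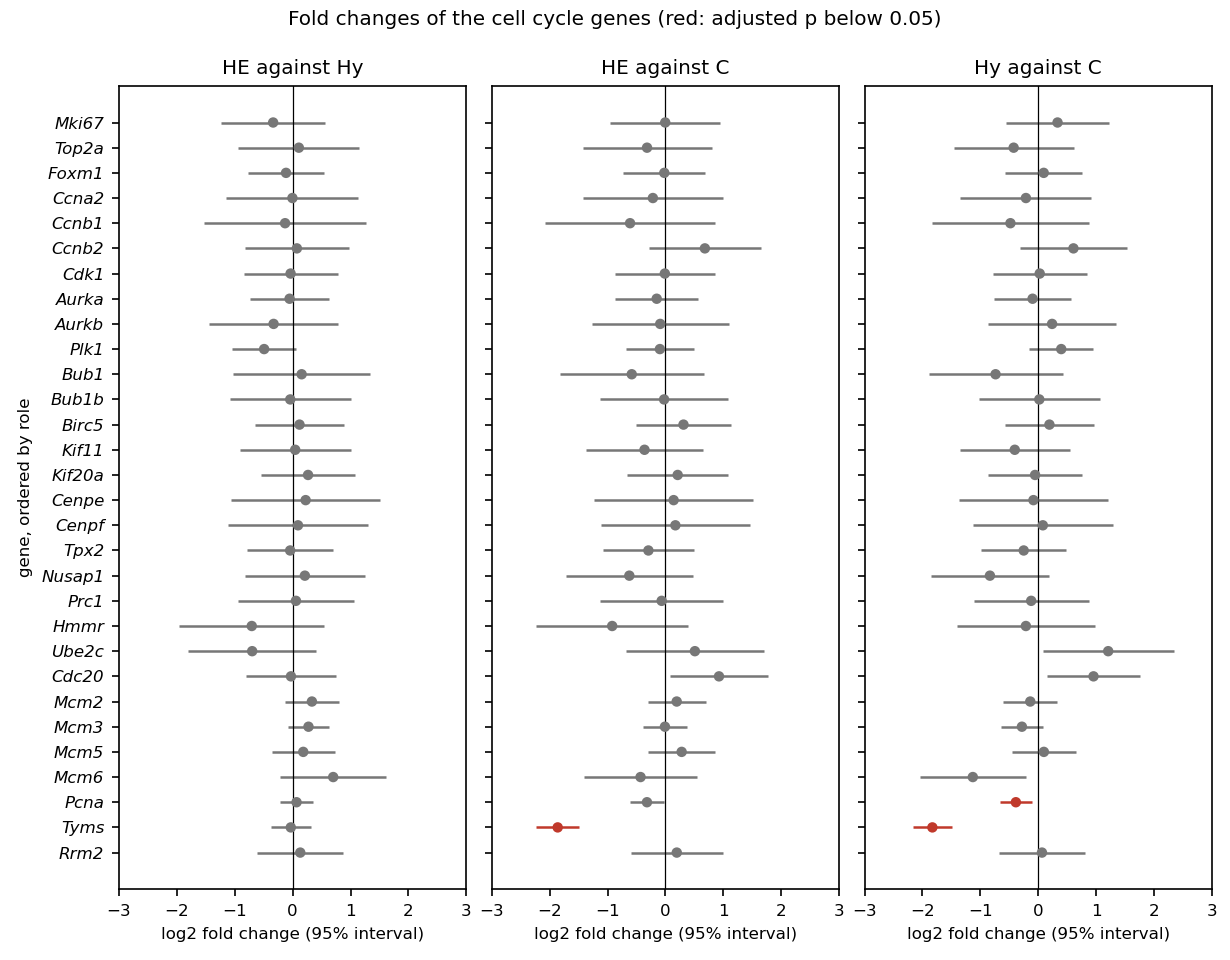
Log2 fold changes with 95% intervals (x axis) of the 30 genes, ordered by role (y axis), in HE against Hy, HE against C and Hy against C. Tyms, at -1.86 in HE against C and -1.83 in Hy against C, and Pcna, at -0.39 in Hy against C, are the called genes (red).

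Tyms encodes thymidylate synthase, which makes dTMP for DNA synthesis (Gene ID 22171, chr5:30038546-30073645). It had 5.06, 5.88 and 5.30 CPM in HE, 6.57, 5.48, 4.74 and 5.33 CPM in Hy, and 20.1, 18.7 and 20.2 CPM in C. All 7 HE and Hy libraries lay well below all 3 C libraries, and HE and Hy overlapped. Of all genes, 25.0% had every HE library below C and 16.2% had every Hy library below C. Tyms fell in HE relative to C, by a factor of 3.63 (log2 fold change -1.86, SE 0.17, adjusted p = 0.00022 by edgeR's quasi-likelihood test). It fell in Hy relative to C by a factor of 3.55 (log2 fold change -1.83, SE 0.15, adjusted p = 0.000108). Between HE and Hy the log2 fold change was -0.03 (95% interval -0.38 to 0.31, adjusted p = 1). The calls against C held in all 19 alternatives of each comparison, with adjusted p between 1.32e-22 and 0.0243 for HE and between 2.27e-25 and 0.0147 for Hy.

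The Tyms values carry a limit of their own. Tyms was the only one of the 30 genes with fractional estimated counts in all 10 libraries, such as 88.09 in HE1, 110.03 in Hy1 and 359.89 in C1, as happens where reads that match several places are shared out. RefSeq names a pseudogene, Tyms-ps, which had no value in any library. Among the genes with a value in each library, 91.0% to 91.6% of estimates were whole numbers in C. In Hy and HE the share was 93.3% to 93.6%, and its bearing on Tyms was not tested. The set of genes with a value differed between C and the other libraries, so whatever made it differ and the group cannot be told apart for Tyms. Rrm2, the ribonucleotide reductase subunit that works beside thymidylate synthase in deoxynucleotide supply, had 2.30, 3.94 and 5.41 CPM in HE, 3.94, 2.77, 4.93 and 2.54 CPM in Hy, and 3.85, 2.97 and 3.35 CPM in C. The ranges overlapped in all 3 comparisons, and none passed the test for Rrm2 (adjusted p between 0.733 and 1).

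Pcna, the clamp that holds DNA polymerase on its template (Gene ID 18538, chr2:132249286-132253180), had 44.8, 44.9 and 55.1 CPM in HE, 52.5, 49.2, 41.4 and 41.1 CPM in Hy, and 59.6, 57.6 and 63.5 CPM in C. Every HE and Hy library lay below every C library, which held for 25.0% of all genes in HE and for 16.2% in Hy. In Hy relative to C it fell by 0.39 on the log2 scale (SE 0.13, edgeR adjusted p = 0.0468), to 46.1 ± 5.69 CPM in Hy against 60.2 ± 3.04 CPM in C (SD, n = 4 and 3). This call was lost in 12 of 19 alternatives, over which the adjusted p ran from 0.0155 to 0.216. Leaving out HE1 or HE2 ended it (adjusted p = 0.0624 and 0.0617), as did leaving out Hy2 or Hy4 (0.0658 and 0.108) or any C library (0.105, 0.0954 and 0.152 for C1, C2 and C3). It was also lost with the replicate number as a block (adjusted p = 0.167). In HE against C the log2 fold change was -0.32 (SE 0.14, adjusted p = 0.12), and it passed only when the 2 groups were fitted alone (adjusted p = 0.0428), out of a range from 0.0428 to 0.298. RefSeq names Pcna pseudogenes, none with a value in any library.

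The helicase subunits did not pass in any comparison. Mcm2 had 15.9, 15.6 and 25.0 CPM in HE, 19.0, 14.6, 14.5 and 11.9 CPM in Hy, and 16.9, 18.1 and 14.4 CPM in C. The 3 groups overlapped, with HE3 the highest library of all and Hy4 the lowest. Mcm3 had 17.0, 17.2 and 23.3 CPM in HE, 16.8, 16.5, 16.6 and 13.6 CPM in Hy, and 19.9, 21.7 and 16.3 CPM in C. It was the only one of the 30 genes whose HE libraries all lay above all Hy libraries, against 2.25% of all genes, and the gap between 17.0 CPM in HE1 and 16.8 CPM in Hy1 was narrow. None of the 30 had all HE libraries below all Hy libraries, against 2.26% of all genes. Its log2 fold change in HE against Hy was 0.27 (SE 0.16, unadjusted p = 0.122, edgeR adjusted p = 1). Without HE3 it was 0.11, and the adjusted p ran from 0.657 to 1 over the alternatives.

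Mcm6 was the most uneven of the subunits, at 5.29, 15.4 and 16.2 CPM in HE, 10.7, 5.72, 8.24 and 5.57 CPM in Hy, and 9.48, 21.9 and 18.4 CPM in C. One library of each of HE and C stood low, so that both overlapped Hy. Its log2 fold change was 0.70 in HE against Hy (SE 0.41, unadjusted p = 0.119, edgeR adjusted p = 1) and -1.13 in Hy against C (SE 0.41, adjusted p = 0.066). In Hy against C it passed with DESeq2 (adjusted p = 0.0252) and without HE1 (0.0333), and it was at 0.334 without Hy2 and Hy4 together. Mcm5 lay between 11.3 and 24.3 CPM in HE, between 12.1 and 17.0 CPM in Hy, and between 12.5 and 14.3 CPM in C. HE3 was again the highest Mcm5 library, and the log2 fold changes of Mcm5 lay between 0.10 and 0.28 in the 3 comparisons (adjusted p between 0.478 and 1).

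**Figure D3:**
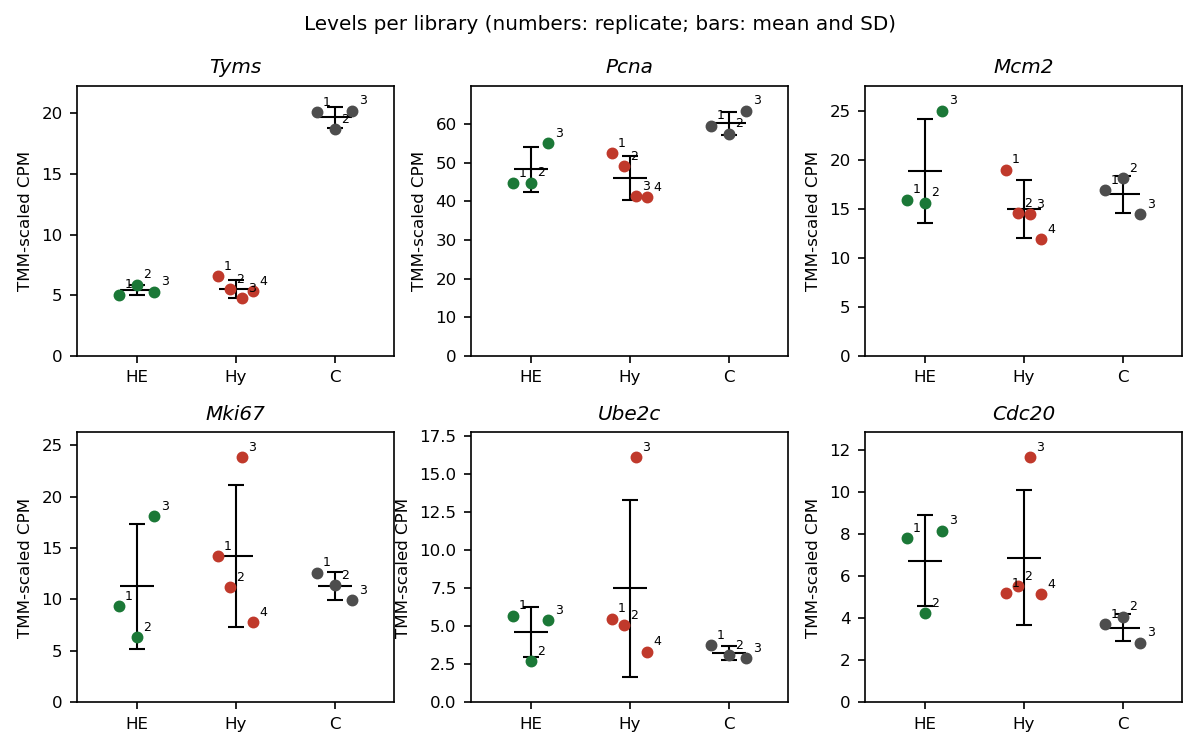
TMM-scaled CPM of 6 genes in each library (points, numbered by replicate) with mean and SD (bars) for HE, Hy and C. Tyms lay between 4.74 and 6.57 CPM in the 7 HE and Hy libraries and between 18.7 and 20.2 CPM in C, whereas Mki67, Ube2c and Cdc20 were highest in Hy3.

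None of the 23 division genes was called in any comparison. Mki67 had 9.37, 6.36 and 18.1 CPM in HE, 14.2, 11.2, 23.8 and 7.82 CPM in Hy, and 12.6, 11.4 and 9.94 CPM in C. Its highest libraries were Hy3 and HE3 and its lowest HE2 and Hy4, with C between them. The log2 fold change was -0.34 in HE against Hy (95% interval -1.23 to 0.56), -0.0042 in HE against C (-0.96 to 0.95) and 0.33 in Hy against C (-0.56 to 1.23). Without Hy3 the sign turned in both comparisons with Hy, to 0.02 in HE against Hy and -0.04 in Hy against C. In HE against C the value was near 0, turned positive without C1 (0.08), C2 (0.0016), HE1 (0.11) or HE2 (0.28), and was -0.52 without HE3. Top2a, the topoisomerase that untangles sister chromosomes, had 4.83, 2.79 and 12.1 CPM in HE, 6.81, 5.13, 9.24 and 3.27 CPM in Hy, and 9.98, 7.86 and 6.76 CPM in C. It followed the order of Mki67 within HE and within Hy. Its log2 fold changes were 0.11 in HE against Hy, -0.32 in HE against C and -0.42 in Hy against C (edgeR adjusted p between 0.529 and 1).

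Foxm1, the transcription factor that drives many mitotic genes, had 8.16, 5.94 and 10.8 CPM in HE, 8.48, 9.20, 13.0 and 5.27 CPM in Hy, and 7.53, 7.98 and 9.77 CPM in C. Hy3 and HE3 were again the highest. The cyclins and their kinase followed. Ccna2, cyclin A2 of S phase and early mitosis, lay between 1.94 and 7.12 CPM in HE, between 1.70 and 6.43 CPM in Hy, and between 3.79 and 5.74 CPM in C. Ccnb1, cyclin B1, which starts mitosis, was scarcer, between 0.485 and 1.55 CPM in HE, between 0.364 and 2.25 CPM in Hy, and between 1.28 and 1.51 CPM in C. Ccnb2, cyclin B2, had 2.41, 2.24 and 4.36 CPM in HE, 4.06, 2.12, 3.74 and 1.51 CPM in Hy, and 2.01, 1.34 and 2.27 CPM in C. Cdk1, the kinase that these cyclins switch on, lay between 1.64 and 3.20 CPM in HE, between 1.33 and 3.12 CPM in Hy, and between 1.82 and 2.91 CPM in C. In all of these genes the HE and Hy ranges enclosed or overlapped the narrower C range. Their log2 fold changes ran from -0.61 for Ccnb1 to 0.68 for Ccnb2, both in HE against C (adjusted p = 0.541 and 0.288).

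Among the kinases of mitosis, Plk1, which acts from mitotic entry to cytokinesis, had 2.41, 2.48 and 3.92 CPM in HE, 3.64, 4.30, 4.74 and 3.88 CPM in Hy, and 3.57, 2.68 and 3.18 CPM in C. All Hy libraries lay above all C libraries, as in 17.5% of all genes, while HE3 lay within the Hy range. The log2 fold change was -0.49 in HE against Hy (SE 0.25, unadjusted p = 0.0765, the smallest of the 30 genes, edgeR adjusted p = 1) and 0.40 in Hy against C (adjusted p = 0.26). Aurka, which builds the spindle poles, lay between 1.33 and 2.54 CPM in HE, between 1.70 and 2.45 CPM in Hy, and between 1.90 and 2.85 CPM in C. Aurkb, the kinase of the chromosomal passenger complex, lay between 0.787 and 2.21 CPM in HE, between 0.666 and 2.68 CPM in Hy, and between 1.11 and 1.90 CPM in C. Both Aurora kinases overlapped in all 3 groups. Bub1 and Bub1b hold back anaphase until chromosomes are attached. Bub1 had 0.977, 1.39 and 1.99 CPM in HE and 2.40, 2.04 and 2.10 CPM in C, so that HE lay below C, as in 25.0% of all genes, with a log2 fold change of -0.58 (edgeR adjusted p = 0.488). In Hy it had 1.55, 1.06, 2.31 and 0.303 CPM. Bub1b lay between 1.11 and 3.51 CPM over all 10 libraries, with log2 fold changes from -0.04 to 0.02.

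The genes of the spindle, kinetochore and cytokinesis overlapped between groups with 1 exception. Nusap1, a spindle microtubule protein, had 1.90, 1.94 and 3.97 CPM in HE, 3.05, 2.30, 3.00 and 0.666 CPM in Hy, and 4.40, 4.02 and 3.64 CPM in C. All Hy libraries lay below all C libraries, as in 16.2% of all genes (log2 fold change -0.83, SE 0.46, edgeR adjusted p = 0.2). Cenpe, the kinetochore motor, lay between 0.485 and 3.81 CPM in HE, between 0.909 and 2.37 CPM in Hy, and no higher than 1.95 CPM in C, where the 3 libraries lay close together. Cenpf, another kinetochore protein, lay between 0.606 and 3.48 CPM in HE, between 0.909 and 3.12 CPM in Hy, and between 1.59 and 2.40 CPM in C. In both the lowest and the highest libraries were HE2 and HE3. Kif11, the motor that pushes spindle poles apart, lay between 1.15 and 3.26 CPM in HE, between 1.03 and 2.50 CPM in Hy, and between 1.76 and 2.85 CPM in C. Tpx2, an activator of Aurora A, lay between 2.30 and 4.80 CPM in HE, between 1.94 and 4.06 CPM in Hy, and between 3.47 and 4.43 CPM in C. Birc5, the passenger protein survivin, lay between 1.39 and 3.81 CPM in HE, between 1.76 and 2.99 CPM in Hy, and between 2.06 and 2.27 CPM in C. Within HE, Cenpe, Cenpf, Kif11, Tpx2 and Birc5 were all lowest in HE2 and highest in HE3.

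Prc1, which bundles the microtubules of the midzone, lay between 1.88 and 6.29 CPM in HE, between 2.12 and 6.49 CPM in Hy, and between 3.81 and 4.89 CPM in C. Kif20a, a kinesin of cytokinesis, lay between 2.00 and 4.75 CPM in HE, between 1.70 and 3.56 CPM in Hy, and between 2.33 and 3.23 CPM in C. Hmmr, a spindle protein that is also a hyaluronan receptor, lay between 0.402 and 1.43 CPM in HE, between 0.545 and 2.06 CPM in Hy, and between 0.966 and 1.95 CPM in C. Hmmr had the most negative fold change of the division genes in HE against Hy and in HE against C, at -0.71 and -0.92 on the log2 scale (edgeR adjusted p = 1 and 0.289). Estimated counts were fractional in 4 libraries for Hmmr and in 3 for Kif20a.

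Ube2c and Cdc20 serve the anaphase-promoting complex, the ubiquitin ligase that ends mitosis: UBE2C is its conjugating enzyme and CDC20 its activator. Ube2c had 5.69, 2.73 and 5.41 CPM in HE, 5.49, 5.07, 16.1 and 3.33 CPM in Hy, and 3.74, 3.09 and 2.90 CPM in C. Hy3 stood far above every other library. The log2 fold change of Ube2c in Hy against C was 1.21 (SE 0.51, edgeR adjusted p = 0.104), and without Hy3 it was 0.51. Cdc20 had 7.82, 4.24 and 8.17 CPM in HE, 5.20, 5.54, 11.7 and 5.15 CPM in Hy, and 3.74, 4.08 and 2.84 CPM in C. Cdc20 was the only one of the 30 genes in which all HE libraries and all Hy libraries lay above all C libraries, which held for 26.6% of all genes in HE and for 17.5% in Hy. Its log2 fold change was 0.92 in HE against C (SE 0.38, adjusted p = 0.108) and 0.95 in Hy against C (SE 0.36, adjusted p = 0.0743). Without Hy3 the value in Hy against C was 0.57 (adjusted p = 0.127), while that in HE against C was 0.91 and passed (adjusted p = 0.0308). Cdc20 also passed with DESeq2 in Hy against C (adjusted p = 0.0446). Its adjusted p lay between 0.0308 and 0.347 over the alternatives in HE against C and between 0.0446 and 0.214 in Hy against C. Between HE and Hy the Cdc20 fold change was -0.03 on the log2 scale.

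**Figure D4:**
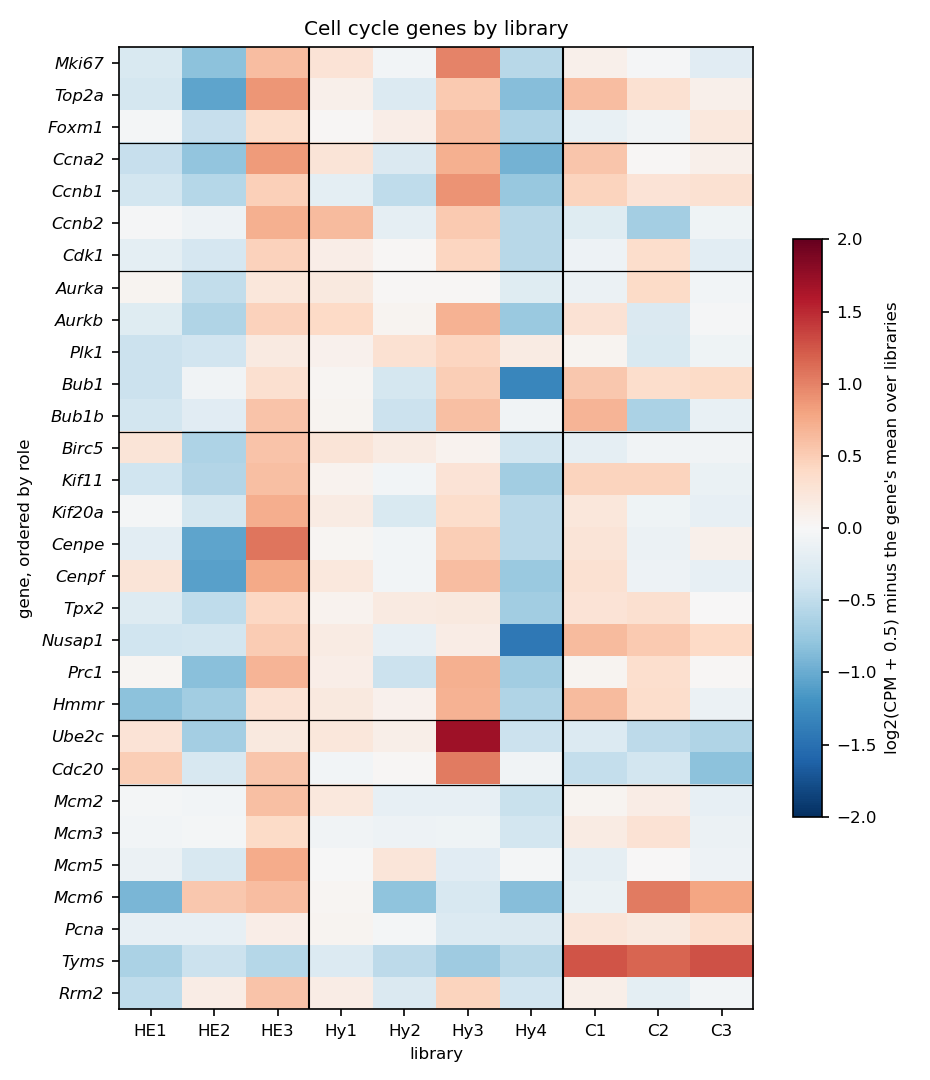
Level of the 30 genes (rows, ordered by role) in each library (columns), as log2(CPM + 0.5) minus the gene's mean over the 10 libraries. The columns HE3 and Hy3 are mostly above the mean and HE2 and Hy4 mostly below it for the 23 division genes, and the Tyms row is high in the 3 C libraries.

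The division genes varied widely within HE and within Hy, while the group means lay close together. HE3 was the highest HE library in 22 of the 23 division genes, against 32.4% of all tested genes, and HE2 the lowest in 18, against 33.8%. Hy3 was the highest Hy library in 19, against 34.0% of all tested genes, and Hy4 the lowest in 21, against 23.7%. The exception for HE3 was Ube2c, and those for Hy3 were Ccnb2, Aurka, Birc5 and Nusap1, in which Hy1 was highest. Summed over the 23 genes, the level was 71.0, 48.2 and 120 CPM in HE, 88.0, 74.5, 134 and 49.7 CPM in Hy, and 89.1, 79.1 and 73.6 CPM in C. The highest library held 2.49 times the lowest in HE, 2.70 times in Hy and 1.21 times in C. The C libraries thus lay inside the ranges of both other groups, whose means of 79.8 ± 36.8 CPM in HE and 86.6 ± 35.5 CPM in Hy stood beside 80.6 ± 7.86 CPM in C (SD, n = 3, 4 and 3).

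The summed counts behind these levels ran from 796 in HE2 to 2179 in HE3, with a counting error of 2.14% to 3.54%. Per gene, the median coefficient of variation of the division genes was 46.2% in HE, 43.2% in Hy and 17.8% in C, against a counting error of 14.4%, 15.5% and 15.1%. The spread was below the counting error in 0 of 23 genes in HE, 2 in Hy and 5 in C. Over all tested genes the medians were 12.4%, 22.2% and 10.5%, without allowance for level. Counting errors cover sampling only, since PCR copies are not independent molecules.

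The replication genes shared the highest HE library and the lowest Hy library with the division genes, but not the other ends. HE3 was the highest HE library in 6 of 7, with Tyms the exception, while HE1 was the lowest in 5 and HE2 in 2. Within Hy, Hy4 was lowest in 5 of 7 and Hy3 in 2. Hy1 was highest in 5 of 7, against 24.3% of all tested genes, and Hy3 in 1, Rrm2. Without Tyms, the summed level of the other 6 was 98.3, 108 and 149 CPM in HE, 117, 106, 97.8 and 88.5 CPM in Hy, and 122, 137 and 129 CPM in C. Hy3, the highest library in division genes, was the second lowest of Hy in this sum, and all Hy libraries lay below all C libraries. The sum is dominated by Pcna.

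Other genes of the cycle, listed apart from the 30, were ranked in the same way. Of 48 tested mitosis genes, HE3 was highest within HE in 37 and HE2 lowest in 36, and Hy3 was highest within Hy in 25 and Hy4 lowest in 32. Of 36 other replication genes, HE3 was highest in 28 and HE1 and HE2 were lowest in 19 and 16, whereas Hy3 was highest in 9 and Hy1 in 14, and Hy3 and Hy4 were lowest in 15 and 16. These libraries and this order were seen in the 30 genes first, and the ranking is a description with no test.

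**Figure D5:**
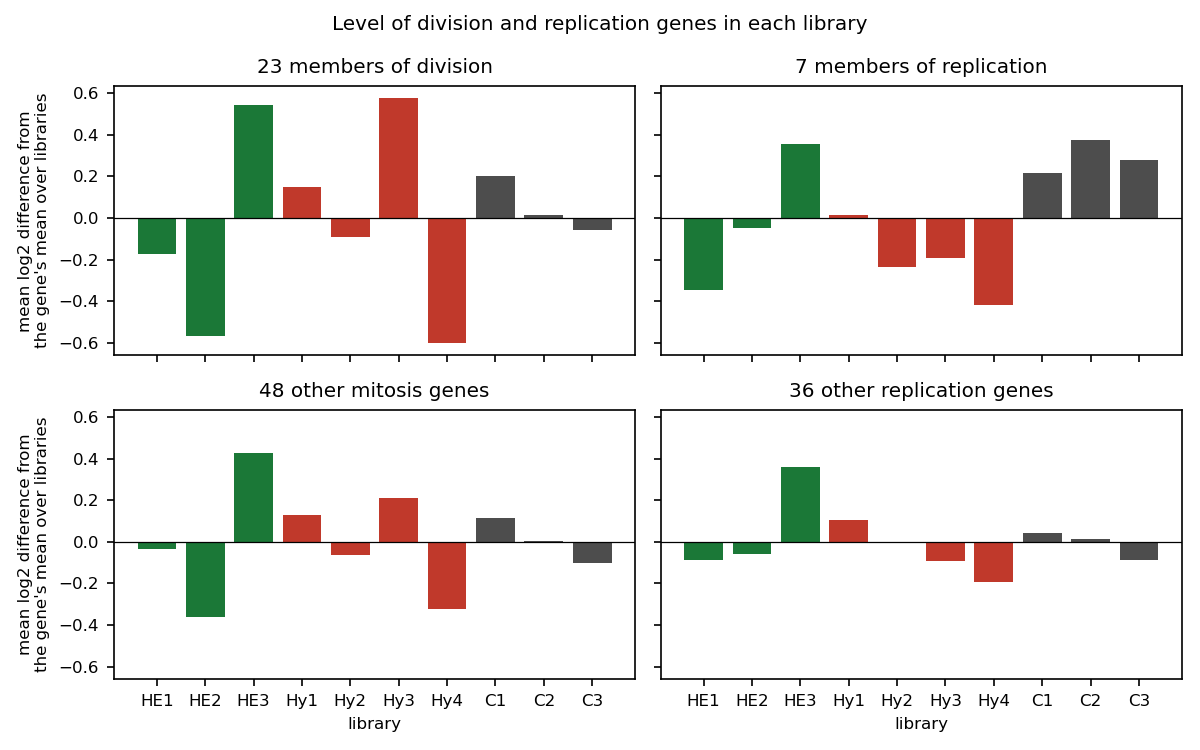
Mean log2 difference from each gene's own mean over the 10 libraries (y axis), per library, for the 23 division genes, the 7 replication genes, 48 other mitosis genes and 36 other replication genes. Division genes were at 0.54 in HE3 and 0.58 in Hy3, and at -0.57 in HE2 and -0.60 in Hy4, and the replication genes of Hy3 lay at -0.19.

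Markers of other cells also differed between these libraries, and their part in the pattern was not tested. Hy3 had the highest summed level of 4 globin genes, 38091 CPM, against 718 to 8727 CPM in the other 9 libraries. It also had the highest sum of 6 genes of red cell precursors, 350 CPM, against 40.2 to 116 CPM elsewhere. Most of that was Alas2, the heme synthesis enzyme, at 300.4 CPM, while the lineage factors Gata1 and Klf1 were at 0.624 and 0.250 CPM in Hy3. Alveolar macrophage markers summed to 526 CPM in Hy3 and to between 28.8 and 306 CPM elsewhere. Neutrophil markers summed to 1515 CPM in Hy2 and 2566 CPM in Hy4, against 89.2 to 255 CPM in the others, and markers of neutrophil precursors did not exceed 2.18 CPM. Cardiac muscle markers summed to 1396 CPM in HE3, 2089 CPM in Hy4 and 1307 CPM in C1, which were the highest of their groups. Of these 3 libraries, HE3 and C1 had the highest summed level of division genes in their groups and Hy4 the lowest in its group.

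Some marker lists held genes called against C. The counts below stand beside 11.7% higher and 8.66% lower of all tested genes in HE against C. In Hy against C the shares were 15.1% higher and 11.0% lower. Lung epithelium had 2 of 7 markers higher, and capillary endothelium 2 of 7 lower, in each comparison with C. Among 6 fibroblast markers, 1 was higher and 1 lower in HE, and 1 was higher and 2 lower in Hy. Of 5 smooth muscle markers, 3 were higher in HE than in C and 4 were higher in Hy than in C. The smooth muscle sum ran from 1049.7 to 1240.4 CPM in HE, from 976 to 1672 CPM in Hy and from 484 to 780.2 CPM in C. Of 6 neutrophil markers, 0 were called in HE against C by edgeR (1 at an unadjusted p under 0.05) and 5 were higher in Hy than in C. Their sum was 255, 1515, 163 and 2566 CPM in Hy1 to Hy4, and from 89.2 to 134 CPM in C. The highest sums were those of Hy2 and Hy4, while those of Hy1 and Hy3 also lay above the C range. In 3 of the 6 neutrophil markers every Hy library lay above every C library, which held for 17.5% of all genes. Of 5 natural killer cell markers, 3 were lower in HE than in C and 1 was lower in Hy than in C, with sums from 9.82 to 16.4 CPM in HE, from 10.3 to 39.6 CPM in Hy and from 37.1 to 47.1 CPM in C. Their part in the calls of Tyms and Pcna was not tested.

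The same lists of other cell cycle genes were tested between groups. In HE against Hy, 0 of 126 tested genes of the 5 lists were called. The counts below stand beside 11.7% higher and 8.66% lower of all tested genes in HE against C, and 15.1% higher and 11.0% lower in Hy against C. Among 36 other replication genes, 2 were higher and 0 lower in HE against C, and 1 was higher and 0 lower in Hy against C. Chaf1b, a subunit of the chromatin assembly factor that loads histones behind the fork, had 4.37, 5.45 and 7.34 CPM in HE, 5.31, 5.96, 3.87 and 5.82 CPM in Hy, and 3.51, 2.80 and 2.39 CPM in C. Every HE and Hy library lay above C, which held for 26.6% of all genes in HE and for 17.5% in Hy. Chaf1b rose in HE relative to C by 0.98 on the log2 scale (SE 0.28, edgeR adjusted p = 0.033) and in Hy relative to C by 0.85 (SE 0.26, adjusted p = 0.0374). Lig1, which joins Okazaki fragments, had 12.8, 14.5 and 18.6 CPM in HE and 10.5, 8.80 and 8.24 CPM in C, and rose in HE by 0.73 (SE 0.20, adjusted p = 0.0316). The HE call of Chaf1b ended when HE2, HE3, C1, C2 or C3 was left out (adjusted p = 0.0822, 0.110, 0.0545, 0.0989 and 0.118), and that of Lig1 with the same omissions (adjusted p = 0.0783, 0.107, 0.055, 0.0992 and 0.113). The block ended both HE calls (0.0695 for Chaf1b and 0.0606 for Lig1). The Hy call of Chaf1b ended when HE2, Hy1, Hy2, Hy4, C1, C2 or C3 was left out (adjusted p = 0.0534, 0.0593, 0.0827, 0.084, 0.0556, 0.111 and 0.135) and under the block (0.135). Across the alternatives, adjusted p-values by edgeR, DESeq2 or limma-voom lay from 0.0104 to 0.144 for Chaf1b in HE, from 0.00978 to 0.129 for Lig1 in HE and from 0.0128 to 0.229 for Chaf1b in Hy.

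Of 48 tested mitosis genes outside the 30, 1 was higher and 0 lower in HE against C, and 2 were higher and 2 lower in Hy against C. Incenp, the scaffold of the chromosomal passenger complex, had 14.6, 13.1 and 13.7 CPM in HE, 11.8, 15.2, 13.7 and 15.1 CPM in Hy, and 8.59, 9.90 and 8.58 CPM in C. All HE and Hy libraries lay above C, which held for 26.6% of all genes in HE and for 17.5% in Hy. Incenp rose by 0.62 in HE (SE 0.15, edgeR adjusted p = 0.02) and by 0.63 in Hy (SE 0.14, adjusted p = 0.0121). Its HE call ended when HE1, HE2, HE3, C1 or C3 was left out (adjusted p = 0.0691, 0.0563, 0.0519, 0.072 and 0.0801), and its Hy call with C1 or C3 left out (0.0516 and 0.0571) and under the block (0.0583). In Hy relative to C, Pttg1, the securin gene, rose by 0.66 (adjusted p = 0.0407), while Smc2, a condensin subunit, fell by 0.73 (0.0289) and Sgo1, which protects cohesin at centromeres, fell by 1.02 (0.0494). Pttg1 had 10.9, 7.84, 7.61 and 9.88 CPM in Hy and 6.30, 4.72 and 6.14 CPM in C. Smc2 had 6.57, 6.72, 7.30 and 4.79 CPM in Hy and 9.14, 12.3 and 10.2 CPM in C. Sgo1 had 0.657, 0.590, 0.437 and 0.424 CPM in Hy and 1.39, 0.932 and 0.909 CPM in C. Hy and C did not overlap in these 3 genes, as in 17.5% of all genes with Hy above C and 16.2% with Hy below C. The Pttg1 call ended when HE1, HE3, Hy1, Hy2, Hy4, C1, C2 or C3 was left out (adjusted p = 0.056, 0.0539, 0.081, 0.0508, 0.0908, 0.0769, 0.147 and 0.0912) and under the block (0.135). That of Smc2 ended with Hy2, Hy4, C1, C2 or C3 left out (0.0527, 0.0665, 0.0504, 0.119 and 0.076) and under the block (0.105). That of Sgo1 ended whichever library was left out (adjusted p = 0.0771, 0.0733 and 0.0718 for HE1 to HE3, 0.0501, 0.0792, 0.0616 and 0.108 for Hy1 to Hy4, and 0.184, 0.097 and 0.0952 for C1 to C3) and under the block (0.163). Across the alternatives, adjusted p-values by edgeR, DESeq2 or limma-voom lay from 0.00417 to 0.148 for Incenp in HE. In Hy they lay from 0.00117 to 0.153 for Incenp, from 0.019 to 0.188 for Pttg1, from 0.00683 to 0.150 for Smc2 and from 0.0455 to 0.334 for Sgo1.

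Among 6 cyclins and kinases of G1, Ccnd2 was lower than C in both comparisons and the other 5 were not called. Ccnd2, cyclin D2, which couples growth signals to the cycle, had 99.1, 93.4 and 104 CPM in HE, 160, 102, 175 and 69.6 CPM in Hy, and 239, 236 and 231 CPM in C. The C libraries lay close together above all others, and HE lay below C in 25.0% of all genes and Hy below C in 16.2%. Ccnd2 fell in HE relative to C by 1.25 on the log2 scale (SE 0.28, edgeR adjusted p = 0.0155) and in Hy relative to C by 0.89 (SE 0.26, adjusted p = 0.031). The HE call ended when HE1, HE2 or C3 was left out (adjusted p = 0.0503, 0.0617 and 0.0505). The Hy call ended when Hy2, C1, C2 or C3 was left out (adjusted p = 0.0766, 0.0797, 0.0825 and 0.0804). Across the alternatives, adjusted p-values by edgeR, DESeq2 or limma-voom lay from 0.000213 to 0.0617 in HE and from 0.00482 to 0.135 in Hy.

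Of 17 genes of CDK inhibitors and growth arrest, 1 was higher and 1 lower in HE against C, and 2 were higher and 2 lower in Hy against C. Cdkn2d, which encodes the CDK4 and CDK6 inhibitor p19, had 17.995, 20.7 and 19.1 CPM in HE, 19.8, 30.7, 17.2 and 37.5 CPM in Hy, and 10.9, 10.0 and 10.6 CPM in C. All HE and Hy libraries lay above C, which held for 26.6% of all genes in HE and for 17.5% in Hy. Hy2 and Hy4, the libraries with the highest neutrophil marker sums, were the highest. The part of neutrophils in the Cdkn2d values was not tested. Cdkn2d rose by 0.87 in HE (SE 0.26, edgeR adjusted p = 0.0408) and by 1.32 in Hy (SE 0.25, adjusted p = 0.00609). Its HE call ended when HE1, HE2, HE3, Hy2, C1, C2 or C3 was left out (adjusted p = 0.0808, 0.119, 0.0853, 0.0516, 0.0944, 0.116 and 0.110), and its Hy call held without any single library and without Hy2 and Hy4 together. Trp53inp1, a p53 target, had 35.7, 55.7 and 45.2 CPM in HE, 34.6, 39.2, 55.2 and 30.7 CPM in Hy, and 96.6, 93.8 and 92.5 CPM in C. It fell by 1.05 in HE (SE 0.22, adjusted p = 0.0117) and by 1.24 in Hy (SE 0.20, adjusted p = 0.00339), and both calls held without any single library. In Hy relative to C, Btg1, an antiproliferative gene, had 147, 166, 136 and 179 CPM in Hy and 99.7, 104 and 107 CPM in C, and rose by 0.60 (adjusted p = 0.00809). Ccng1, cyclin G1, another p53 target, had 97.8, 93.7, 125 and 103 CPM in Hy and 154, 162 and 154 CPM in C, and fell by 0.58 (adjusted p = 0.0234). The Btg1 call held without any single library but was lost without Hy2 and Hy4 together (adjusted p = 0.0751). The Ccng1 call ended when Hy2, Hy4, C1, C2 or C3 was left out (adjusted p = 0.0601, 0.0553, 0.0637, 0.0784 and 0.0678) and under the block (0.0507). Across the alternatives, adjusted p-values in Hy lay from 2.25e-05 to 0.0723 for Cdkn2d, from 8.56e-07 to 0.0643 for Trp53inp1, from 9.78e-05 to 0.114 for Btg1 and from 0.00388 to 0.154 for Ccng1. In HE they lay from 0.00223 to 0.119 for Cdkn2d and from 0.000158 to 0.0815 for Trp53inp1.

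Of 19 genes of the E2F, pocket protein and MuvB families, known as regulators of cell cycle genes, 1 was higher and 1 lower in each comparison with C. Lin37, a MuvB subunit, had 21.7, 24.9 and 17.4 CPM in HE, 21.7, 21.2, 14.8 and 20.6 CPM in Hy, and 11.9, 15.0 and 11.9 CPM in C. It rose by 0.72 in HE (SE 0.19, edgeR adjusted p = 0.0281) and by 0.60 in Hy (SE 0.18, adjusted p = 0.0375), although Hy3 lay within the C range. Rbbp4, a histone chaperone of MuvB and other complexes, had 87.3, 80.6 and 86.6 CPM in HE, 82.1, 75.1, 67.7 and 65.9 CPM in Hy, and 115, 122 and 117 CPM in C. It fell by 0.48 in HE (SE 0.11, edgeR adjusted p = 0.0164) and by 0.70 in Hy (SE 0.10, adjusted p = 0.00211), with no overlap. HE lay below C in 25.0% of all genes and Hy below C in 16.2%. The HE call of Lin37 ended when HE1, HE2, C1 or C3 was left out (adjusted p = 0.0773, 0.108, 0.0921 and 0.103), and that of Rbbp4 with HE2, C1, C2 or C3 left out (0.0713, 0.0515, 0.0652 and 0.0587). The Hy call of Lin37 ended when HE1, Hy1, Hy2, Hy4, C1, C2 or C3 was left out (adjusted p = 0.0551, 0.072, 0.0826, 0.0806, 0.119, 0.0566 and 0.130) and under the block (0.0535). That of Rbbp4 held without any single library. Across the alternatives, adjusted p-values by edgeR, DESeq2 or limma-voom lay from 0.00755 to 0.108 for Lin37 and from 0.000124 to 0.105 for Rbbp4 in HE, and from 0.0068 to 0.221 for Lin37 and from 3.75e-10 to 0.057 for Rbbp4 in Hy.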

How the data were processed

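Lung mRNA was measured in 10 libraries (3 HE, 4 Hy, 3 C), grouped by title. The authors deposited estimated counts without normalisation. The submitters' processing notes name RSEM 1.2.12, HISAT2 2.0.4, Bowtie2 2.2.5 and DESeq 1.4.5 with GRCm38.p6, and give no roles. Per the labels' protocols, poly(A) RNA was picked with oligo(dT) beads.

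Counts were rounded, and genes valued in all libraries were kept. Gene IDs were named from RefSeq (19150 of 19204 valued genes). After edgeR's filterByExpr (minimum count 10), 14766 genes were fitted over the 3 groups together (edgeR 4.0.16, R 4.3.3, TMM, robust quasi-likelihood, 7 residual degrees of freedom, common biological variation 26.9%). A call is a Benjamini-Hochberg adjusted p below 0.05 over all genes tested. The procedure was run on simulated counts drawn with the fitted spread of each gene. These held no shift of whole libraries and no difference in gene sets, so the run cannot vouch for the calls here. Alternatives were DESeq2 1.42.0, limma-voom 3.58.1, RLE factors, other filters, the 2 groups alone, all genes valued in Hy and HE, leaving out 1 library at a time and a block on the replicate number. Fits that drop HE3, Hy4 and C1 (high cardiac markers) or Hy4 and Hy2 (high neutrophil markers) were added after seeing the data.

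All 30 genes are named. Values of every library are given at least for those of the 30 that were called, for Mki67, Top2a, Pcna and Mcm2, and for the 3 smallest p in HE against Hy. From each other cell cycle list at most 2 called genes per direction are named. The genes and lists were chosen with earlier results of these data known, and the per-library ranking was chosen after seeing the values.

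Same-numbered libraries of Hy and C deviated together (correlations 0.12, 0.25 and 0.13), which met a criterion of 0.1 for pairing, although the labels state none and pairs of different number correlated as much or more (0.45 for Hy4 with C1, 0.27 for Hy3 with C2). HE and Hy (-0.04, 0.06 and -0.02) and HE and C (-0.10, 0.19 and -0.26) did not. Hy4 has no partner of its number and adds nothing to blocked fold changes.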

Additional observations from a re-analysis of the deposited data

Results flagged for a closer look

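In 3 genes, 1 of the 4 Hy libraries stood apart by Dixon's criterion at 95%, which compares the gap to the nearest library with the whole range of the group. Ube2c was at 16.1 CPM in Hy3, with a gap of 0.831 of the range. Cdc20 was at 11.7 CPM in Hy3, with a gap of 0.940 of the range. Mcm3 was at 13.6 CPM in Hy4, the lowest of the group, with a gap of 0.915 of the range. The criterion was applied to 32 sets of Hy values, and chance alone marks about 1 in 20. Globin genes summed to 38091 CPM in Hy3, and neutrophil markers to 2566 CPM and cardiac markers to 2089 CPM in Hy4. Their part in these values was not tested.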

How the results depend on the processing

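Tyms kept its direction and its call against C in all 19 alternatives of Hy against C and of HE against C. The count of called genes among the 30 in Hy against C was 2, and became 4 with DESeq2 and 1 with no filter, with the replicate block, with the 2 groups alone, with C1, Hy4 and HE3 left out, and without Hy2 and Hy4. It ran from 1 to 2 with single libraries left out. In HE against C the count was 1, became 2 with the 2 groups alone, and ran from 1 to 2 with single libraries left out. In HE against Hy it was 0 in every alternative run. Over all genes, Hy against C called 1745 with the replicate block (1112 higher, 633 lower), 360 without C1, Hy4 and HE3, 1070 without Hy2 and Hy4, and from 1681 to 5973 with single libraries left out. HE against C called 5408 with the 2 groups alone, 498 without C1, Hy4 and HE3, and from 1014 to 4712 with single libraries left out. HE against Hy called 48 with DESeq2, 1 without Hy2 and Hy4, and from 0 to 6 with single libraries left out. In Hy against C, the block ended the calls of Pcna, Chaf1b, Incenp, Pttg1, Smc2, Sgo1, Ccng1 and Lin37 and, in HE against C, those of Chaf1b (adjusted p = 0.0695) and Lig1 (0.0606). It ended no other call of a named gene.

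In at least 1 alternative, 24 of the 30 genes changed sign in HE against Hy, 18 in HE against C and 16 in Hy against C, of which 0 were called with the opposite sign. With limma-voom these were 6, 3 and 2 genes, among them Cenpe, which was at -0.14 in HE against Hy and -0.29 in HE against C. Top2a in HE against Hy was at -0.035 with limma-voom, -0.23 with the replicate block, -0.89 with C1, Hy4 and HE3 left out, and -0.28 without Hy2 and Hy4, and ran from -0.68 to 0.47 with single libraries left out (-0.10 without Hy4). Top2a in HE against C ran from -1.10 to 0.045, and Mki67 from -0.52 to 0.28 in HE against C, from -0.86 to 0.025 in HE against Hy and from -0.0405 to 0.54 in Hy against C. Mki67 in HE against C was at 0.08, 0.0016 and 0.11 without C1, C2 and HE1. Pcna in HE against Hy ran from -0.038 to 0.14 and was at -0.0895 without C1, Hy4 and HE3. Mcm2 in HE against C ran from -0.062 to 0.31. Without C1, Hy4 and HE3 it was at -0.043 in HE against C and -0.021 in HE against Hy, and without Hy2 and Hy4 it was at 0.0054 in Hy against C. Without C1, Hy4 and HE3 together, the adjusted p was 0.0723 for Cdkn2d, 0.114 for Btg1, 0.0643 for Trp53inp1 and 0.057 for Rbbp4 in Hy against C, and 0.0815 for Trp53inp1 in HE against C. The causes of these changes were not tested. Depth limits the scarcest division genes, whose counting error is given with the spread between libraries.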
